A study of Arabidopsis thaliana with 24 samples.

Results

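B-type cyclins and B-type cyclin-dependent kinases (CDKB) of Arabidopsis thaliana are described here across leaves of plants labelled by ploidy. The 10 genes are CYCB1;1 to CYCB1;4, CYCB2;1 to CYCB2;4, CDKB1;1 and CDKB2;1, taken by their locus identifiers from tables that list 27416 genes. All 10 were found, and all 10 passed the filter on low counts, as did 19201 genes in all. The RNA libraries come from 6 groups of 2 libraries. DH6, DH9 and DH14 are numbered doubled-haploid lines, sDH is a further group whose name the labels do not spell out, 2n and 1n are named for a diploid and a haploid chromosome set, and 1n is the group that the deposited tables set every other group beside. DH6, DH9, DH14, sDH and 2n are called the 5 diploid groups below, as their names read. No treatment, transgene or mutant allele is named for any group. The deposited tables carry Col in their names and WT in the names of the 2n columns, and no label spells out the strain. Nor do the labels used here say how haploid plants were induced, how their chromosomes were doubled, or how many plants or lines stand behind a library. All plants were 2 weeks old and grew on soil at 22 °C in days of 16 h, with nights of 8 h, after 2 days of stratification of the seeds at 4 °C. The labels give the tissue as seedlings, while the extraction text names leaves 6, 7 and 8 as the source of the RNA.

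Cyclin-dependent kinases drive the plant cell cycle, and the cyclin bound to a kinase sets when and on what it acts. B-type cyclins accumulate from G2 into mitosis and are then destroyed through the anaphase-promoting complex (APC/C), and CDKB kinases are a plant-specific class whose transcripts are likewise made late in the cycle. In leaves, cells divide early, the stomatal lineage goes on dividing longest, and most other cells later copy their DNA without division, so that transcripts of this group mark the share and activity of dividing cells.

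Libraries held 16484799 to 22146896 counts in genes, of which 501 to 3005 per library fell on the 10 genes, and 1 count was worth 0.0449 to 0.0631 CPM (counts scaled to a fixed library total). Both libraries of a group are labelled as biological replicates. Whether they came from separate plants or harvests is not said, so that p-values measure only the spread between them. The chi-square of the replicates' counts over the 10 genes, divided by its degrees of freedom, was 9.04 in DH6, 1.84 in DH9, 1.17 in DH14, 2.45 in sDH, 3.73 in 2n and 0.996 in 1n. Over all genes it was 12.9 in DH6, 3.96 in DH9, 5.91 in DH14, 6.95 in sDH, 9.83 in 2n and 24 in 1n. The 1n libraries were thus the least alike pair over all genes. DH6, the least alike pair over the 10 genes, stood apart in a further way. Among genes that no other group's libraries detected, DH6 II held counts at 11.6% and DH6 III at 20.8%. The same share was 1.38 to 4.6% for each of the other libraries. Beside the results below that rest on DH6 alone, the calls lost without 1 of its libraries are therefore given.

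All 10 genes were higher in each of the 5 diploid groups than in 1n. For every gene, all 10 libraries of the diploid groups lay above both 1n libraries, a separation that 15.1% of the 19201 tested genes showed. Calls are genes with an adjusted p (Benjamini-Hochberg) under 0.05 in the quasi-likelihood test of edgeR, fitted over all 12 libraries and all tested genes. By this test all 10 genes rose against 1n in DH6, where 22.6% of all tested genes rose, in DH9 (15.5%), in DH14 (12.2%), in sDH (24.1%) and in 2n (21%). The median log2 change of the 10 genes was 2.01 in DH6, 1.70 in DH9, 1.58 in DH14, 1.75 in sDH and 1.81 in 2n, while the median over all tested genes lay between -0.01 and 0.01. These 5 comparisons share the 1n libraries, so that they are not independent of each other. Of the 10 genes, CYCB2;1 passed the filter on low counts only through the diploid groups, so that its rise is no separate support. In the mean of the 5 diploid groups against 1n, all 10 rose as well (22.2% of all tested genes rose), with a median log2 change of 1.75, and without DH6 in that mean all 10 still rose. CPM are shares of a library: with whole leaves as the source, fewer dividing cells and less RNA of a gene per cell cannot be told apart.

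**Figure D1:**
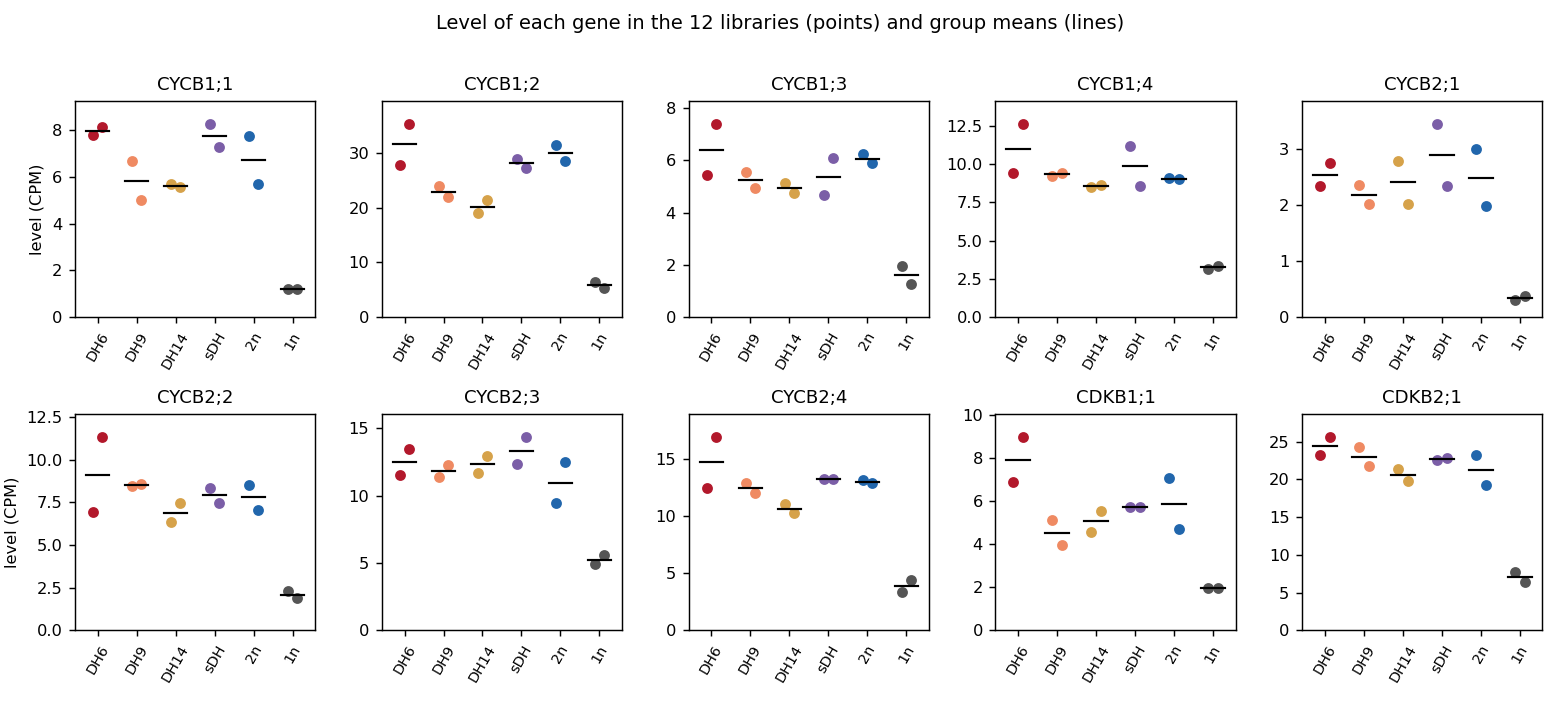
Levels in CPM (linear axis from 0) of the 10 genes in 12 libraries, as 2 points per group with a line at the group mean, for DH6, DH9, DH14, sDH, 2n and 1n from left to right. Both 1n points lie below every other point in all 10 panels, whereas many pairs of the other groups overlap.

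Among B1 cyclins, CYCB1;1 is the best known, since its promoter and destruction box make the common reporter of cells in G2 and M, and its transcript is also induced by DNA damage. CYCB1;1 (AT4G37490) had 7.77 and 8.11 CPM in DH6, 6.69 and 4.99 in DH9, 5.67 and 5.58 in DH14, 8.26 and 7.25 in sDH, 7.73 and 5.67 in 2n, against 1.21 and 1.2 CPM in 1n. The 1n libraries were alike and low. Both DH6 libraries lay above all libraries of DH9, DH14 and 2n and within the range of sDH. Its log2 change against 1n ran from 2.22 in DH14 to 2.71 in DH6, and the fitted mean of the diploid groups was 5.54-fold that of 1n, a log2 change of 2.47 (SE 0.211, adjusted p = 7.08e-06).

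CYCB1;2 (AT5G06150), a mitotic cyclin of the same subclass, had 27.9 and 35.3 CPM in DH6, 23.9 and 22.0 in DH9, 19.0 and 21.4 in DH14, 28.9 and 27.3 in sDH, 31.4 and 28.5 in 2n, against 6.42 and 5.24 CPM in 1n. Both DH9 and both DH14 libraries lay below all libraries of DH6, sDH and 2n, so that this gene split the diploid groups, and 1n lay far below all of them. The log2 change against 1n ran from 1.79 in DH14 to 2.44 in DH6, and that of the mean was 2.16 (SE 0.130, adjusted p = 8.45e-07). CYCB1;3 (AT3G11520) had 5.44 and 7.39 CPM in DH6, 5.54 and 4.94 in DH9, 5.15 and 4.77 in DH14, 4.66 and 6.08 in sDH, 6.26 and 5.88 in 2n, against 1.94 and 1.26 CPM in 1n. Both DH9 and both DH14 libraries lay below those of 2n, DH6 lay above DH14, and its mean log2 change was 1.79 (SE 0.222, adjusted p = 7.83e-05). CYCB1;4 (AT2G26760) had 9.39 and 12.6 CPM in DH6, 9.21 and 9.43 in DH9, 8.51 and 8.62 in DH14, 11.2 and 8.54 in sDH, 9.06 and 8.99 in 2n, against 3.15 and 3.35 CPM in 1n. Replicates were close in DH9, DH14 and 2n and apart in DH6 and sDH, and the mean log2 change was 1.55 (SE 0.163, adjusted p = 2.7e-05). Summed over the 4 B1 cyclins, the level was 57.0 ± 9.14 CPM in DH6, 43.3 ± 2.85 CPM in DH9, 39.3 ± 1.45 CPM in DH14, 51.1 ± 2.75 CPM in sDH, 51.7 ± 3.88 CPM in 2n, against 11.9 ± 1.18 CPM in 1n (SD, n = 2 each).

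B2 cyclins are the other large subclass of plant mitotic cyclins. CYCB2;1 (AT2G17620) had 2.34 and 2.75 CPM in DH6, 2.36 and 2.02 in DH9, 2.78 and 2.03 in DH14, 3.45 and 2.34 in sDH, 3.01 and 1.98 in 2n, against 0.303 and 0.379 CPM in 1n. The 1n values are 5 and 6 counts and lay below all other libraries, whose groups overlapped. As these counts lie under the filter's minimum of 10, the gene entered the test through the diploid groups, where it was higher. CYCB2;1 had the largest log2 change of the 10 genes in the mean of the diploid groups, 2.85 (SE 0.363, adjusted p = 9.51e-05), and also the widest 95% interval, 2.05 to 3.65. CYCB2;2 (AT4G35620) had 6.92 and 11.3 CPM in DH6, 8.44 and 8.59 in DH9, 6.35 and 7.46 in DH14, 8.35 and 7.49 in sDH, 8.52 and 7.06 in 2n, against 2.30 and 1.89 CPM in 1n. DH6 III was the highest library and DH6 II lay within the range of DH14, and the mean log2 change was 1.93 (SE 0.221, adjusted p = 4.72e-05).

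CYCB2;3 (AT1G20610) had 11.5 and 13.5 CPM in DH6, 11.4 and 12.2 in DH9, 11.7 and 12.9 in DH14, 12.3 and 14.3 in sDH, 9.41 and 12.5 in 2n, against 4.91 and 5.56 CPM in 1n. Each diploid group overlapped with 2n, and this gene had the highest 1n level relative to its own diploid levels and the smallest mean log2 change of the 10, 1.21 (SE 0.144, adjusted p = 5.93e-05), and its 95% interval was 0.90 to 1.53. CYCB2;4 (AT1G76310) had 12.5 and 16.9 CPM in DH6, 12.9 and 11.99 in DH9, 11.0 and 10.2 in DH14, 13.3 and 13.2 in sDH, 13.2 and 12.9 in 2n, against 3.39 and 4.42 CPM in 1n. Both DH14 libraries were below those of the other diploid groups, and the mean log2 change was 1.71 (SE 0.151, adjusted p = 9.09e-06). Summed B2 cyclins reached 38.9 ± 7.93 CPM in DH6, 34.97 ± 0.175 CPM in DH9, 32.3 ± 0.564 CPM in DH14, 37.4 ± 0.0149 CPM in sDH, 34.3 ± 0.255 CPM in 2n, against 11.6 ± 0.952 CPM in 1n (SD, n = 2 each). The small SD of the sum in sDH arose as differences in single genes cancelled. There, sDH II was higher for CYCB2;1 and CYCB2;2, and sDH III for CYCB2;3.

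CDKB1 kinases act with A2 cyclins in keeping cells from leaving the mitotic cycle and are needed for symmetric division in the stomatal lineage, and CDKB2 kinases peak closer to mitosis. CDKB1;1 (AT3G54180) had 6.87 and 8.96 CPM in DH6, 5.10 and 3.95 in DH9, 4.57 and 5.53 in DH14, 5.74 and 5.73 in sDH, 7.05 and 4.71 in 2n, against 1.94 and 1.96 CPM in 1n. Both DH6 libraries lay above those of DH9, DH14 and sDH, and DH6 II lay just below the higher 2n library. Its log2 change against 1n ran from 1.21 in DH9 to 2.02 in DH6, the widest range between groups among the 10 genes, with a mean log2 change of 1.55 (SE 0.222, adjusted p = 0.000208). CDKB2;1 (AT1G76540) had 23.3 and 25.6 CPM in DH6, 24.2 and 21.8 in DH9, 21.4 and 19.8 in DH14, 22.6 and 22.9 in sDH, 23.3 and 19.3 in 2n, against 7.75 and 6.38 CPM in 1n. Both DH6 libraries lay above those of DH14 and, by little, of 2n, and the other groups overlapped with 2n. The gene's SE was the smallest of the 10, with a mean log2 change of 1.66 (SE 0.115, adjusted p = 1.99e-06). Both kinases together summed to 32.3 ± 3.12 CPM in DH6, 27.5 ± 2.56 CPM in DH9, 25.6 ± 0.442 CPM in DH14, 28.5 ± 0.211 CPM in sDH, 27.1 ± 4.48 CPM in 2n, against 9.01 ± 0.960 CPM in 1n (SD, n = 2 each).

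**Figure D2:**
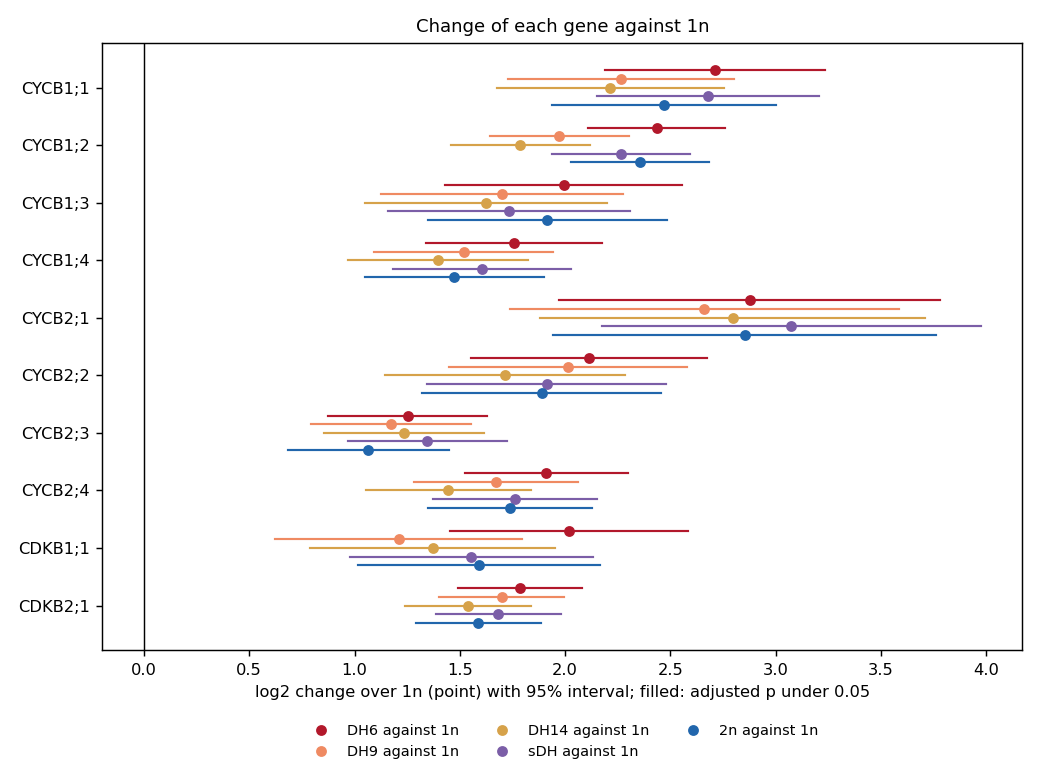
Log2 change of each gene (rows) over 1n in DH6, DH9, DH14, sDH and 2n, as points with 95% intervals from edgeR's fit, where a filled point has an adjusted p under 0.05. All points are filled and lie between 1.07 and 3.07, with CYCB2;1 farthest to the right and CYCB2;3 nearest to 0.

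As a description of how the genes differ among themselves, each was also taken as its share of the summed CPM of the 10. CYCB1;2 took 24.6% in DH6, 21.7% in DH9, 20.7% in DH14, 24.02% in sDH and 26.5% in 2n, against 17.9% in 1n. CYCB1;1 took 5.49 to 6.63% in the 5 diploid groups, against 3.71% in 1n, and CYCB2;1 took 1.99 to 2.48%, against 1.05% in 1n. CYCB2;3 went the other way, with 9.77 to 12.7% in the diploid groups, against 16.1% in 1n. The shares of CYCB2;4 were close, at 10.9 to 11.8% in the diploid groups and 12.1% in 1n. These shares compare a gene with itself between groups, since levels of different genes were not scaled by length. Summed over all 10, the level was 128 ± 20.19 CPM in DH6, 106 ± 5.59 CPM in DH9, 97.2 ± 1.57 CPM in DH14, 117 ± 2.55 CPM in sDH, 113 ± 8.10 CPM in 2n, against 32.5 ± 1.19 CPM in 1n (SD, n = 2 each).

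DH6, DH9, DH14 and sDH were then set beside 2n. In DH6, 0 of the 10 genes passed (25.1% of all tested genes changed and 11.9% rose), with 0 at an unadjusted p under 0.05 and 0 by DESeq2. In sDH, 0 passed (30.4% changed and 15.4% rose), with 0 at an unadjusted p under 0.05 and 0 by DESeq2. In DH9, 0 passed (17.2% changed and 8.66% rose), with 1 at an unadjusted p under 0.05 and 0 by DESeq2. In DH14, 1 gene passed (26.2% changed, 12.7% rose and 13.6% fell), and it fell. DESeq2 called the same number.

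The gene that fell in DH14 was CYCB1;2, with a log2 change of -0.57 (SE 0.131, adjusted p = 0.00911) and the per-library values given above. The call was lost without DH14 1 (log2 change -0.49, adjusted p = 0.0778) and without 2n 1 (-0.50, adjusted p = 0.0643). In DH9 the same gene had a log2 change of -0.39 (SE 0.130, adjusted p = 0.0651), which did not pass. For the 10 genes, the 95% intervals of the log2 difference from 2n reached from -0.64 to 0.92 in DH6, from -0.90 to 0.61 in DH9, from -0.86 to 0.62 in DH14 and from -0.67 to 0.89 in sDH, the outer limits over all 10. Equality with 2n was thus not shown. The narrowest intervals were those of CDKB2;1, -0.07 to 0.47 in DH6, -0.16 to 0.38 in DH9, -0.32 to 0.22 in DH14 and -0.17 to 0.36 in sDH. The comparisons share the 2n libraries.

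**Figure D3:**
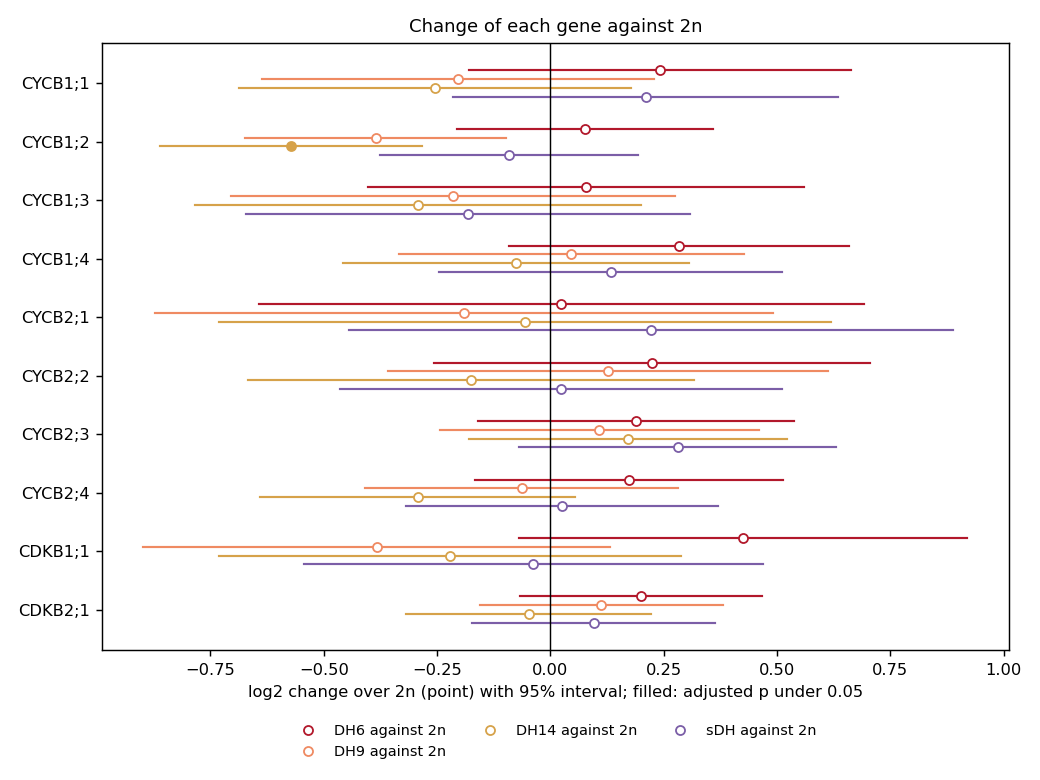
Log2 change of each gene (rows) over 2n in DH6, DH9, DH14 and sDH, as points with 95% intervals from edgeR's fit, where a filled point has an adjusted p under 0.05. The single filled point is CYCB1;2 in DH14 at -0.57, and all other points are open.

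Among the numbered lines, 2 of the 10 genes differed by an F-test over DH6, DH9 and DH14 (25.3% of all tested genes did), CYCB1;2 with an adjusted p of 0.00956 and CDKB1;1 with 0.0413. In DH6 against DH9, 2 genes rose (7.1% of all tested genes rose). They were CYCB1;2, with a log2 change of 0.46 (SE 0.130, adjusted p = 0.0346), and CDKB1;1, with 0.81 (SE 0.230, adjusted p = 0.0359). In DH6 against DH14, 2 rose (12.7% rose), CYCB1;2 with 0.65 (SE 0.131, adjusted p = 0.00456) and CYCB2;4 with 0.47 (SE 0.156, adjusted p = 0.0474). In DH9 against DH14, 0 passed (3.1% changed), with 0 at an unadjusted p under 0.05 and 0 by DESeq2. An F-test over all 5 diploid groups called CYCB1;2 alone among the 10, with an adjusted p of 0.00829 (46.8% of all tested genes passed).

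These calls depended on single libraries. Several were lost without libraries of other groups. Each call among the numbered lines was lost without DH6 III, the library with the highest level for 7 of the 10 genes. Without it, CYCB1;2 had a log2 change of 0.28 in DH6 against DH9 (adjusted p = 0.268) and of 0.47 in DH6 against DH14 (0.0535), and the F-test over the lines called 0 of the 10, with an adjusted p of 0.113 for CYCB1;2. The call of CYCB1;2 in DH6 against DH9 was also lost without DH9 1 (0.115) and without DH9 2 (0.182), while the F-test over the 5 diploid groups kept this gene without DH6 III. For CDKB1;1, the call in DH6 against DH9 was lost without either library of DH6, DH9 or sDH and by DESeq2, at log2 changes of 0.61 to 1.00 (adjusted p 0.051 to 0.222). Its F-test call over the lines was lost without any one library of DH6, DH9, DH14 or sDH and by DESeq2 (0.0541 to 0.305). For CYCB2;4, the call in DH6 against DH14 was lost without DH6 III (log2 change 0.23, adjusted p = 0.379). It was also lost without any one library of DH9, DH14, sDH or 2n (0.42 to 0.52, adjusted p 0.0634 to 0.202), with only the 4 libraries compared (0.47, 0.0541) and by DESeq2 (0.46, 0.103). The part of the DH6 counts at genes silent elsewhere in these differences was not tested.

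Ordered by group means, 1n was lowest for 10 of 10 genes, and its libraries overlapped with no neighbour. DH6 was highest for 8 genes and sDH for 2, CYCB2;1 and CYCB2;3. The share of all tested genes with DH6 highest was not taken. DH6 III alone was the highest library for 7 of the 10, and 0 passed in DH6 against 2n. For CYCB1;1, CYCB1;3, CYCB2;1, CYCB2;3 and CDKB2;1, each diploid group overlapped with the next in the order. For CYCB1;2 the order was DH6, 2n and sDH, which overlapped, and then DH9 and DH14, each separate from the group before it. CYCB1;4 had gaps between DH9 and 2n and between 2n and DH14, CYCB2;2 between DH9 and sDH, CYCB2;4 between sDH and 2n and between DH9 and DH14, and CDKB1;1 between sDH and DH14. By edgeR, DH9 and DH14 against 2n did not pass for CYCB1;4 (adjusted p = 0.889 and 0.786), nor did sDH against 2n for CYCB2;4 (0.922). DH9 against DH14 did not pass for CYCB1;2 (0.561) or CYCB2;4 (0.547). The difference of sDH from DH9 or DH14 was not tested. Gaps between groups of 2 libraries are no test, and the share of all tested genes with such gaps was not taken.

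The closest kin were read next. Of 5 kin genes, 4 rose and 0 fell in the mean of the diploid groups against 1n (22.2% of all tested genes rose and 24.7% fell). CDKB1;2 (AT2G38620) had 5.57 and 5.59 CPM in DH6, 3.34 and 4.29 in DH9, 4.15 and 3.25 in DH14, 4.90 and 3.33 in sDH, 3.84 and 4.33 in 2n, against 1.64 and 1.14 CPM in 1n, a log2 change of 1.60 (SE 0.242, adjusted p = 0.000301). CDKB2;2 (AT1G20930) had 12.7 and 14.4 CPM in DH6, 12.1 and 10.2 in DH9, 10.03 and 9.28 in DH14, 14.4 and 13.1 in sDH, 11.9 and 12.7 in 2n, against 3.51 and 4.04 CPM in 1n, a log2 change of 1.66 (SE 0.129, adjusted p = 3.88e-06). They are the nearest paralogs of CDKB1;1 and CDKB2;1, and how reads shared within such a pair were counted is not stated, so that the values of all 4 are uncertain to that degree. CYCB3;1 (AT1G16330), the single B3 cyclin, had 6.56 and 7.58 CPM in DH6, 5.15 and 6.71 in DH9, 5.36 and 6.14 in DH14, 7.74 and 5.97 in sDH, 6.21 and 5.30 in 2n, against 1.33 and 1.77 CPM in 1n, a log2 change of 2.01 (SE 0.212, adjusted p = 2.71e-05). CDKB1;2, CDKB2;2 and CYCB3;1 each rose in all 5 groups against 1n. The other two were near the floor of detection: CYCB1;5 (AT1G34460) rose in the mean contrast at 0.197 to 1.32 CPM in the diploid groups, against 0.121 and 0.189 CPM in 1n, and AT1G20590 had 0.0449 to 2.36 CPM, against 0 and 0.189 CPM in 1n, with an adjusted p of 0.0685. The call of CYCB1;5 was lost without either 1n library, with an adjusted p of up to 0.148.

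A-type cyclins act in S phase and G2. In the mean of the diploid groups against 1n, 7 of 9 tested rose (22.2% of all tested genes did) and 0 fell, with a median log2 change of 0.73. Of the 7, CYCA3;1 and CYCA3;4, named after their values were seen, lost the call without 1n 2. CYCA1;1 (AT1G44110), the one expressed nearest to mitosis, had 16.1 and 17.3 CPM in DH6, 10.6 and 11.6 in DH9, 9.40 and 9.38 in DH14, 17.3 and 16.3 in sDH, 13.5 and 10.1 in 2n, against 3.45 and 2.90 CPM in 1n, a log2 change of 2.01 (SE 0.147, adjusted p = 2.65e-06). Of the 4 A2 cyclins, the partners of CDKB1, 2 passed, CYCA2;4 with 1.54 (SE 0.159, adjusted p = 2.47e-05) and CYCA2;3 with 0.77 (SE 0.0802, adjusted p = 2.62e-05). CYCA2;1, with 0.76 (SE 0.491, adjusted p = 0.225), and CYCA2;2, with 0.51 (SE 0.234, adjusted p = 0.0965), did not pass. CYCA3;2, which varied among the diploid groups (F-test, adjusted p = 0.0119), had 15.8 and 19.4 CPM in DH6, 15.8 and 15.6 in DH9, 14.4 and 14.6 in DH14, 16.0 and 16.5 in sDH, 22.2 and 22.9 in 2n, against 11.99 and 9.41 CPM in 1n, and was highest in 2n. CYCA1;2, a cyclin of meiosis, had a log2 change of 0.73 (SE 0.266, adjusted p = 0.0425), and 9 of 17 alternatives lost that call, with adjusted p up to 0.145.

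D-type cyclins link growth signals to entry into the cycle. Of 9 tested, 6 rose and 1 fell (22.2% and 24.7% of all tested genes), and the median was 0.68. CYCD3;1 had a log2 change of 0.70 (SE 0.0914, adjusted p = 0.000115), CYCD1;1 one of 0.68 (SE 0.0978, adjusted p = 0.000205) and CYCD6;1, known from formative divisions of the root, one of 1.11 (SE 0.195, adjusted p = 0.000811). CYCD4;1, a cyclin of stomatal precursor division, had 4.27 and 5.36 CPM in DH6, 2.91 and 2.86 in DH9, 3.20 and 3.30 in DH14, 4.48 and 4.04 in sDH, 4.83 and 5.19 in 2n, against 1.51 and 2.21 CPM in 1n, a log2 change of 1.09 (SE 0.195, adjusted p = 0.000938). CYCD3;2 did not pass in the mean of the groups (log2 change -0.05, SE 0.0752, adjusted p = 0.628), and its groups lay on both sides of 1n, with 45.2 and 47.8 CPM in DH6, 29.2 and 31.6 in DH9, 35.5 and 33.4 in DH14, 56.9 and 54.1 in sDH, 34.0 and 30.7 in 2n, against 38.0 and 42.2 CPM in 1n. The 1 that fell, named after its value was seen, was CYCD2;1, with -0.50 (SE 0.0951, adjusted p = 0.00146). Another of the 6 that rose, CYCD3;3 (log2 change 0.37), stood at an adjusted p of 0.05 after rounding and lost its call in 14 of 17 alternatives.

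CDKA;1 is the central kinase that works with all cyclin classes through the whole cycle. CDKA;1 (AT3G48750) had 35.2 and 33.7 CPM in DH6, 35.4 and 37.1 in DH9, 39.4 and 39.3 in DH14, 33.8 and 34.7 in sDH, 43.3 and 45.3 in 2n, against 39.6 and 36.2 CPM in 1n, and its log2 change against 1n was -0.01 (SE 0.0661, adjusted p = 0.881). Its interval was -0.16 to 0.13, below the lower limit of every one of the 10 genes in the same contrast. CDKA;1 was highest in 2n and fell against 2n in DH6 (log2 change -0.36, SE 0.0845, adjusted p = 0.01), a call lost without DH6 III (-0.33, adjusted p = 0.0764), and in DH9 (log2 change -0.29, SE 0.0846, adjusted p = 0.0379) and sDH (log2 change -0.37, SE 0.0848, adjusted p = 0.007). Of the 8 genes for CDKA, CKS subunits and CDK-activating kinases, 3 rose and 0 fell (22.2% and 24.7% of all tested genes), with a median of 0.18. CKS2 (AT2G27970), a docking subunit, had 13.0 and 17.5 CPM in DH6, 6.47 and 9.43 in DH9, 8.72 and 7.10 in DH14, 14.4 and 14.6 in sDH, 12.6 and 9.90 in 2n, against 4.12 and 3.09 CPM in 1n, a log2 change of 1.60 (SE 0.206, adjusted p = 0.000104). CYCH;1, the cyclin of the activating kinase, had 0.50 (SE 0.103, adjusted p = 0.00211), and CDKD;1, a CDK-activating kinase, had 0.86 (SE 0.323, adjusted p = 0.0484), a call that 13 of 17 alternatives lost. CDKD;3 varied among the diploid groups with an adjusted p of 0.0163 in the F-test.

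Inhibitors of the kinases are the KRP and SIAMESE-related (SMR) proteins and the kinase WEE1. Of 15 tested, 2 rose and 4 fell, shares below the 22.2% and near the 24.7% of all tested genes, with a median of -0.03. KRP6 (AT3G19150) had 4.31 and 4.27 CPM in DH6, 5.87 and 3.95 in DH9, 5.88 and 5.12 in DH14, 3.405 and 4.15 in sDH, 3.89 and 5.403 in 2n, against 9.09 and 9.72 CPM in 1n, a log2 change of -1.04 (SE 0.163, adjusted p = 0.000388). SMR1 (AT3G10525), an inhibitor that promotes endoreduplication of leaf cells, had 30.0 and 24.3 CPM in DH6, 22.3 and 25.1 in DH9, 19.0 and 19.3 in DH14, 19.3 and 26.4 in sDH, 30.5 and 23.2 in 2n, against 52.6 and 32.9 CPM in 1n, a log2 change of -0.85 (SE 0.161, adjusted p = 0.00136). Its 1n libraries differed from each other but lay above all others. The other two that fell were KRP1 (log2 change -0.51, SE 0.142, adjusted p = 0.0131) and SIM (log2 change -0.41, SE 0.133, adjusted p = 0.0249), the founding member of the SMR family, both named after their values were seen. The KRP1 call was lost without 1n 1, where its adjusted p was 0.33, and the SIM call in 3 of 17 alternatives. WEE1, which holds cells before division when replication is hindered, had 0.69 (SE 0.193, adjusted p = 0.0126), and AT5G40460 had 0.78 (SE 0.253, adjusted p = 0.0255), the call of each being lost without either 1n library. KRP4 did not pass against 1n in the mean (log2 change -0.03, SE 0.0869, adjusted p = 0.821) but varied among the diploid groups (F-test, adjusted p = 0.00186), with 14.1 and 12.1 CPM in DH6, 13.9 and 13.2 in DH9, 18.2 and 18.1 in DH14, 20.0 and 19.9 in sDH, 13.4 and 13.1 in 2n, against 14.5 and 16.8 CPM in 1n.

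The APC/C degrades B-type cyclins. The list read here holds its subunits, its activators and its inhibitors, so that a count of rises does not stand for more degradation. Of 19 genes, 13 rose and 2 fell (22.2% and 24.7% of all tested genes), with a median of 0.68. Of those that rose, CCS52A2, OSD1, HBT, APC2 and AT1G06590, named after their values were seen, each lost the call under some alternative. The activators of mitosis had the smallest p-values. CDC20.1 (AT4G33270) had 53.0 and 66.0 CPM in DH6, 49.2 and 46.9 in DH9, 39.9 and 40.7 in DH14, 57.0 and 47.0 in sDH, 52.9 and 45.3 in 2n, against 14.8 and 16.4 CPM in 1n, a log2 change of 1.66 (SE 0.119, adjusted p = 2.36e-06). CDC20.2, a close copy with which it may share reads, had 1.70 (SE 0.118, adjusted p = 1.99e-06), and CCS52B, an activator expressed from G2 to M, had 1.5 (SE 0.117, adjusted p = 3.95e-06). The 2 that fell were CCS52A1, an activator that promotes endoreduplication, with -0.48 (SE 0.130, adjusted p = 0.0101) and a call that was lost without 1n 1 (adjusted p = 0.141), and the subunit gene APC10, with -0.24 (SE 0.0695, adjusted p = 0.0168) and a call that was lost without either 1n library and by DESeq2. CCS52A1 was named after its value was seen. APC10 had 37.2 and 39.4 CPM in DH6, 28.7 and 27.6 in DH9, 28.6 and 30.5 in DH14, 28.5 and 32.0 in sDH, 24.3 and 23.2 in 2n, against 35.4 and 34.4 CPM in 1n, so that 2n was lower than all other groups. APC11 varied among the diploid groups, with an adjusted p of 0.0219 in the F-test, a call lost without DH6 III (0.0541).

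Transcription of B-type cyclins is driven by MYB3R factors, of which MYB3R4 activates late-cycle genes, while MYB3R3 and MYB3R5 repress them. Of 14 MYB3R, E2F and RBR regulators, 5 rose and 1 fell (22.2% and 24.7% of all tested genes), with a median of 0.16. MYB3R4 (AT5G11510) had 12.1 and 17.4 CPM in DH6, 14.4 and 14.5 in DH9, 14.2 and 14.3 in DH14, 13.8 and 11.0 in sDH, 16.6 and 15.3 in 2n, against 7.63 and 5.30 CPM in 1n, a log2 change of 1.14 (SE 0.171, adjusted p = 0.000282). AT1G63100, listed with these regulators, had 18.0 and 24.2 CPM in DH6, 18.8 and 18.6 in DH9, 14.9 and 16.9 in DH14, 21.9 and 19.1 in sDH, 17.1 and 19.5 in 2n, against 6.72 and 6.06 CPM in 1n, a log2 change of 1.56 (SE 0.138, adjusted p = 9.26e-06). TSO1, a cell-cycle regulator of the DREAM kind, had 0.43 (SE 0.0666, adjusted p = 0.000376). The other two that rose, named after their values were seen, were DEL1, an atypical E2F, with 0.96 (SE 0.175, adjusted p = 0.00105), and E2FA, an activator of S phase genes, with 0.44 (SE 0.140, adjusted p = 0.0242), a call that was lost without 1n 2 and by DESeq2. MYB3R1, of the same family, had 0.16 (SE 0.150, adjusted p = 0.411), with 26.6 and 17.3 CPM in 1n, and without 1n 1 it passed the test. The 1 that fell was DPA, a partner of E2F factors, with -0.52 (SE 0.125, adjusted p = 0.00573), named after its value was seen, and DPB varied among the diploid groups (adjusted p = 0.0379 in the F-test, but 0.0662 without DH6 II and 0.0562 without DH6 III).

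Other genes of late G2 and M phase were read beside the 10: 15 of 15 rose (22.2% of all tested genes did) and 0 fell. Their median log2 change of 1.78 stood beside 1.75 for the 10 and -0.02 for all tested genes. KNOLLE (AT1G08560), the syntaxin of the cell plate, had 41.7 and 56.6 CPM in DH6, 31.7 and 36.8 in DH9, 29.9 and 28.8 in DH14, 50.1 and 45.9 in sDH, 44.8 and 42.3 in 2n, against 9.15 and 10.1 CPM in 1n, a log2 change of 2.06 (SE 0.131, adjusted p = 1.23e-06). TPX2, a spindle protein, had 1.79 (SE 0.120, adjusted p = 1.68e-06), HINKEL, a kinesin of the phragmoplast, 1.91 (SE 0.132, adjusted p = 1.98e-06), and MAD2, of the spindle checkpoint, 1.44 (SE 0.142, adjusted p = 1.79e-05). All 15 also rose in 2n against 1n (21% of all tested genes did). Against 2n, 1 of the 15 rose in DH6, TOPII, a DNA topoisomerase named after its value was seen (log2 change 0.55, SE 0.145, adjusted p = 0.0179), beside 11.9% of all tested genes, and without DH6 III its call was lost (0.34, adjusted p = 0.17). In DH14, 1 fell, KNOLLE (log2 change -0.57, SE 0.138, adjusted p = 0.0117), beside 13.6% of all tested genes. In DH9 and sDH, 0 passed by edgeR.

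Genes of S phase had a smaller median change. Of 12, 10 rose and 0 fell (22.2% and 24.7% of all tested genes), with a median of 0.79. MCM6 had 24.3 CPM in both libraries of DH6, 18.2 and 18.8 in DH9, 23.3 and 22.5 in DH14, 23.9 and 22.6 in sDH, 24.8 and 23.9 in 2n, against 10.8 and 11.4 CPM in 1n, a log2 change of 1.02 (SE 0.0751, adjusted p = 2.75e-06), and MCM7 and MCM5, of the same replicative helicase, had 0.97 (SE 0.0968, adjusted p = 1.92e-05) and 0.92 (SE 0.0919, adjusted p = 1.93e-05). TSO2, a subunit of ribonucleotide reductase, had 101 and 132 CPM in DH6, 73.8 and 69.1 in DH9, 61.7 and 60.8 in DH14, 72.0 and 68.6 in sDH, 103 and 91.2 in 2n, against 48.9 and 39.5 CPM in 1n, a log2 change of 0.87 (SE 0.113, adjusted p = 0.000107), and it fell against 2n in DH9, DH14 and sDH. RNR2A, which encodes a further subunit of that enzyme, varied among the diploid groups (adjusted p = 0.0285 in the F-test, but 0.0518 without DH6 II).

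DNA damage genes were read because CYCB1;1 is known to respond to damage. Of 8 tested, 5 rose and 1 fell (22.2% and 24.7% of all tested genes), with a median of 0.41. BRCA1 (AT4G21070) had 10.6 and 13.9 CPM in DH6, 11.3 and 11.5 in DH9, 10.3 and 9.43 in DH14, 10.2 and 11.1 in sDH, 13.4 and 17.2 in 2n, against 6.84 and 8.15 CPM in 1n, a log2 change of 0.65 (SE 0.141, adjusted p = 0.00302). PARP2 had 0.30 (SE 0.1002, adjusted p = 0.0273), and 3 of 17 alternatives lost its call. TK1A had 0.92 (SE 0.126, adjusted p = 0.000156) and PARP1 0.51 (SE 0.114, adjusted p = 0.00394), whereas GMI1, named after its value was seen, fell with -0.61 (SE 0.207, adjusted p = 0.0307), a call that 4 of 17 alternatives lost. The damage-induced inhibitors SMR5 and SMR7 were too low to test, at 0 to 0.303 CPM and at 0.0474 to 0.404 CPM over the 12 libraries. SOG1, the damage regulator, had 0.32 (SE 0.140, adjusted p = 0.0819) and was highest in 2n, with 7.68 and 9.91 CPM in DH6, 10.7 and 12.2 in DH9, 11.9 and 10.1 in DH14, 10.2 and 7.72 in sDH, 15.03 in both libraries of 2n, against 9.15 and 8.21 CPM in 1n.

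**Figure D4:**
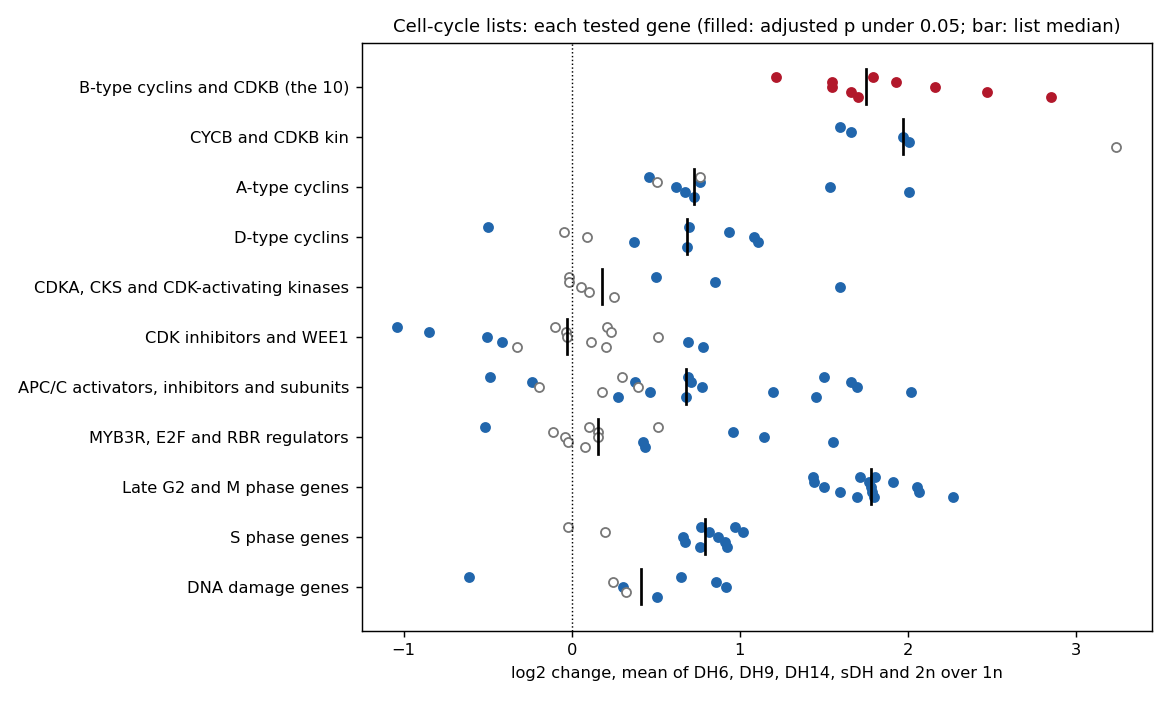
Log2 change in the mean of DH6, DH9, DH14, sDH and 2n over 1n for each tested gene of the 10 and of 10 cell-cycle lists (rows), filled where the adjusted p is under 0.05, with a bar at the median of each list. The 10 genes (median 1.75), their kin (1.97) and late G2 and M phase genes (1.78) lie farthest to the right, S phase genes lie at 0.79, and inhibitors spread on both sides of 0. The kin median is the value of a gene near the floor of detection.

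Markers of leaf cell types were read beside the 10 genes. Of 8 stomatal lineage markers, 8 rose in the mean of the diploid groups against 1n (22.2% of all tested genes did), with a median log2 change of 1.5. Their summed level was 105 to 107 CPM in DH6, 82.7 to 86.9 in DH9, 93.3 to 101 in DH14, 98.5 to 113 in sDH and 63.9 to 75.2 in 2n, against 39.0 to 47.1 in 1n. SPCH, which starts the lineage, had 11.8 and 10.5 CPM in DH6, 8.77 and 9.48 in DH9, 10.8 and 12.2 in DH14, 14.9 and 10.6 in sDH, 7.93 and 5.403 in 2n, against 3.09 and 2.15 CPM in 1n, a log2 change of 1.93 (SE 0.217, adjusted p = 4.15e-05), and FAMA, which ends its divisions, had 34.0 and 37.1 CPM in DH6, 34.5 and 33.3 in DH9, 38.8 and 39.8 in DH14, 34.0 and 31.1 in sDH, 26.9 and 24.8 in 2n, against 26.7 and 21.2 CPM in 1n, a log2 change of 0.47 (SE 0.0923, adjusted p = 0.00174). Of 8 markers of young proliferating leaf, 8 rose in the same contrast (22.2% of all tested genes), with a median of 1.40. Their summed level was 94.0 to 99.1 CPM in DH6, 77.6 to 81.6 in DH9, 79.1 to 83.0 in DH14, 79.0 to 97.4 in sDH and 58.4 to 64.2 in 2n, against 38.7 to 41.7 in 1n. No marker of either list was at 0 in any group.

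In 2n against 1n, where 21% of all tested genes rose, 5 of 8 stomatal lineage markers and 4 of 8 young leaf markers rose. All 10 B-type cyclin and CDKB genes did. Against 2n, 5 stomatal lineage, 5 young leaf and 2 of 4 mature leaf markers rose in DH6, where 11.9% of all tested genes rose. Without DH6 II, 1 stomatal lineage, 3 young leaf and 2 mature leaf markers rose there, and as many did without DH6 III. In DH9, 1, 1 and 4 of these markers rose (8.66% of all tested genes), in DH14 3, 4 and 4 (12.7%), where 1 young leaf marker fell, and in sDH 7, 3 and 2 (15.4%). Of the 10 genes, 0 rose in any of these 4 comparisons. Markers of mature leaf were abundant in all libraries. In the mean of the diploid groups, 3 of 4 fell against 1n (24.7% of all tested genes did), with a median of -0.42. They were RBCS1A (-0.27), RBCS2B (-0.66) and RCA (-0.57), of the carbon-fixing enzyme and its activase. The summed level of all 4 mature leaf markers was 44968 to 45916 CPM in DH6, 47370 to 49127 in DH9, 52612 to 53397 in DH14, 39677 to 44698 in sDH and 37132 to 37932 in 2n, against 54312 to 58098 in 1n. The part of leaf stage or cell types in the changes of the 10 genes was not tested.

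Other tissue was scarce. Of 9 shoot meristem markers the summed level was 0.27 to 1.23 CPM over all libraries, with 2 to 7 of the 9 at 0 in a group, and 1 was tested, which did not pass. Root markers summed to 0.0548 to 0.985 CPM, with PLT1, PLT2 and EXPA7 at 0 in every library, and seed markers to 0 to 0.373 CPM, with all 3 at 0 in both 1n libraries. Flower markers summed to 0.234 to 0.987 CPM in the diploid groups, against 1.45 to 2.67 CPM in 1n.

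**Figure D5:**
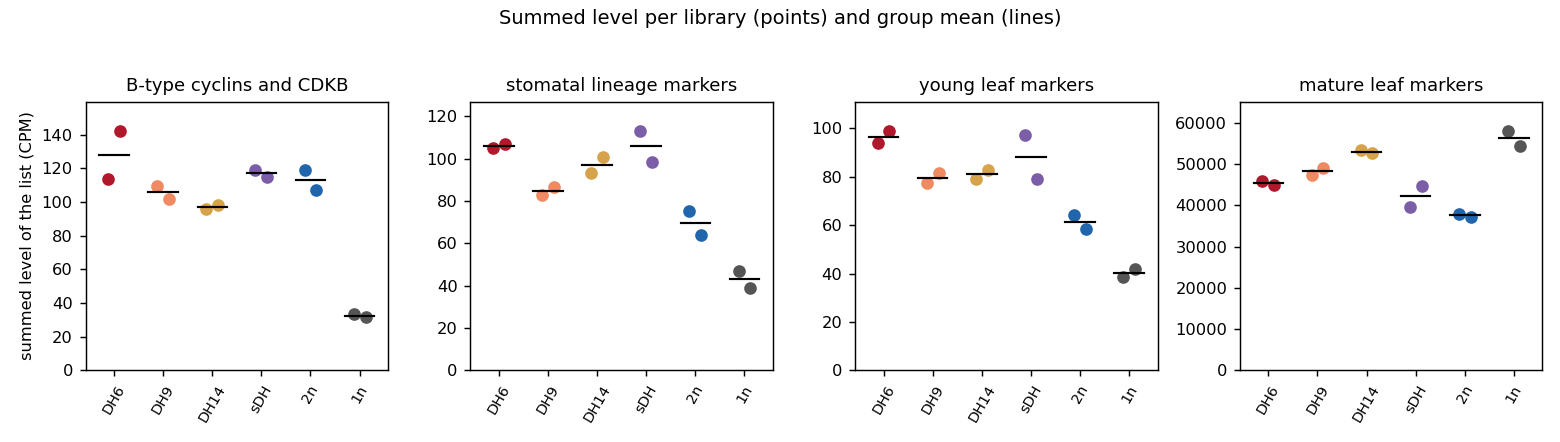
Summed CPM per library (points; linear axes from 0, a scale of its own for each panel) of the 10 B-type cyclin and CDKB genes, of stomatal lineage, young leaf and mature leaf markers, with lines at group means. In the first panel both 2n libraries (107 and 119 CPM) lie within the range of the DH6, DH9, DH14 and sDH libraries, in the next 2 panels 2n lies between them and 1n, and in the last panel 1n is highest.

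The tested genes outside the 10 whose pattern was most like theirs were found by Pearson correlation over the 12 libraries of log2(CPM + 1) with the mean standardised pattern of the 10, as a description, since the points share the gap between 1n and the rest. The first 10 were 3xHMG-box2 (r = 0.995), a chromatin protein that binds mitotic chromosomes, AT2G07170 (0.993), AT2G34190 (0.992), ATK5, a kinesin of the spindle (0.991), CDC20.1 (0.991), AT4G15830 (0.990), AT3G10310 (0.990), AT5G23910 (0.990), SBT1.3 (0.989) and CSLD5, a wall synthase of dividing cells (0.988). The members themselves ranged from 0.931 for CYCB2;3 to 0.987 for CYCB1;1. Over the 10 libraries of the diploid groups alone, the members ranged from 0.119 for CYCB2;3 to 0.935 for CYCB2;4, and CYCB2;3 thus tracked the others little once 1n was left out.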

How the data were processed

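RNA was measured in 12 libraries, 2 per group. The deposited gene tables hold read counts, which the authors made from 150 bp paired reads. The submitters' processing notes name TAIR10, HISAT2, Subread and DESeq2, without steps or versions. The annotation, the strand setting and the rule for reads shared between genes were not given in the sources used here. The 5 tables were joined by gene identifier, and the first 1n column is in each of them. For 2n the WT columns were used, as no other labelled group was left. DH6 and sDH columns carry the numerals II and III and keep them. The sDH table repeats that column in place of the second, and the repeat was not used. Counts of transposable elements and the 12 DNA samples were not used here.

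In R 4.3.3, edgeR 4.0.16 with limma 3.58.1 filtered genes (filterByExpr, minimum count 10, minimum total 15), normalised by TMM and fitted 1 quasi-likelihood model with a mean per group. CPM use TMM-scaled library sizes. SE is the absolute log2 change over the root of F. Adjusted p is Benjamini-Hochberg over 19201 genes, with calls under 0.05. The scripts were tested on simulated data. Alternatives were DESeq2 1.42.0, other size factors, filters, subsets and left-out libraries.

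The 10 genes and all lists were chosen with earlier results of these data known. Named are the 10 genes, CDKB1;2, CDKB2;2, CYCB3;1, CDKA;1, damage genes fixed with the lists, and per list up to 3 with the smallest adjusted p against 1n and up to 2 more by the F-test over the diploid groups. The text says where others were named after their values were seen. Marker examples SPCH and FAMA were also so chosen. The values of 1 damage gene are not reported here. Promoter, protein and per-length readings were not made.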

Additional observations from a re-analysis of the deposited data

Results flagged for a closer look

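The named genes below differed among DH6, DH9 and DH14 by edgeR's F-test (Benjamini-Hochberg adjusted p, 25.3% of all tested genes), and levels are mean ± SD over 2 libraries each. Among the 10 genes, CYCB1;2 (adjusted p = 0.00956) had 31.6 ± 5.24 CPM in DH6, 22.9 ± 1.37 CPM in DH9 and 20.15 ± 1.70 CPM in DH14. CDKB1;1 (adjusted p = 0.0413) had 7.92 ± 1.47 CPM in DH6, 4.52 ± 0.814 CPM in DH9 and 5.05 ± 0.680 CPM in DH14. Both calls were lost without DH6 III, and that of CDKB1;1 without other libraries too. Among other cyclins, CYCA1;1 (adjusted p = 0.00491) had 16.7 ± 0.796 CPM in DH6, 11.1 ± 0.715 CPM in DH9 and 9.39 ± 0.00980 CPM in DH14. CYCD1;1 (adjusted p = 0.00108) had 31.0 ± 1.83 CPM in DH6, 18.5 ± 2.12 CPM in DH9 and 17.9 ± 0.403 CPM in DH14. CYCD3;1 (adjusted p = 0.0497) had 25.7 ± 1.47 CPM in DH6, 20.5 ± 0.933 CPM in DH9 and 26.2 ± 0.0184 CPM in DH14. CYCD3;2 (adjusted p = 0.00277) had 46.5 ± 1.83 CPM in DH6, 30.4 ± 1.71 CPM in DH9 and 34.4 ± 1.495 CPM in DH14. CYCD4;1 (adjusted p = 0.0488) had 4.81 ± 0.770 CPM in DH6, 2.88 ± 0.0308 CPM in DH9 and 3.25 ± 0.0668 CPM in DH14. DH6 was highest for each of these, except CYCD3;1, where DH14 was highest.

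Of partners, inhibitors and APC/C genes, CKS2 (adjusted p = 0.00951) had 15.3 ± 3.16 CPM in DH6, 7.95 ± 2.09 CPM in DH9 and 7.91 ± 1.14 CPM in DH14. KRP4 (adjusted p = 0.0153) had 13.1 ± 1.36 CPM in DH6, 13.5 ± 0.491 CPM in DH9 and 18.1 ± 0.0763 CPM in DH14, the highest line being DH14. CDC20.1 (adjusted p = 0.0239) had 59.5 ± 9.17 CPM in DH6, 48.1 ± 1.66 CPM in DH9 and 40.3 ± 0.551 CPM in DH14. APC10 (adjusted p = 0.00809) had 38.3 ± 1.62 CPM in DH6, 28.2 ± 0.734 CPM in DH9 and 29.6 ± 1.32 CPM in DH14. APC11 (adjusted p = 0.0273) had 4.11 ± 0.352 CPM in DH6, 2.19 ± 0.462 CPM in DH9 and 2.18 ± 0.710 CPM in DH14. Of late, S phase and damage genes, KNOLLE (adjusted p = 0.00613) had 49.2 ± 10.5 CPM in DH6, 34.3 ± 3.55 CPM in DH9 and 29.3 ± 0.787 CPM in DH14. MCM6 (adjusted p = 0.0145) had 24.3 ± 0.00888 CPM in DH6, 18.5 ± 0.463 CPM in DH9 and 22.9 ± 0.594 CPM in DH14, the lowest line being DH9. MCM7 (adjusted p = 0.0457) had 47.2 ± 6.49 CPM in DH6, 35.8 ± 3.47 CPM in DH9 and 38.0 ± 0.0967 CPM in DH14. TSO2 (adjusted p = 0.0016) had 116 ± 22.3 CPM in DH6, 71.4 ± 3.29 CPM in DH9 and 61.3 ± 0.616 CPM in DH14. TK1A (adjusted p = 0.0114) had 16.1 ± 1.04 CPM in DH6, 11.9 ± 0.0360 CPM in DH9 and 9.77 ± 1.77 CPM in DH14. Of these 15 other genes, CYCD1;1, CYCD3;2 and TSO2 kept the call without DH6 II and without DH6 III. The other 12 lost it without DH6 III, with adjusted p from 0.0514 for CYCA1;1 to 0.377 for MCM7, and CYCD3;1, CYCD4;1, APC11 and MCM6 also lost it without DH6 II. The part of the DH6 counts at genes silent elsewhere in these differences was not tested.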

How the results depend on the processing

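All 10 genes rose against 1n in each group and in the mean of the 5 diploid groups under every alternative run. Those were other (RLE) size factors, DESeq2, no filter and a stricter filter on low counts, only the 4 libraries compared, each left-out library and, chosen after seeing the data, the mean without DH6. Log2 changes then ran from 0.84 to 3.32 and the largest adjusted p was 0.0458. Scaling moved the median of all genes by at most 0.0196. Left-out libraries leave a group of 1, assumed to vary like the others.

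Differences among the diploid groups were less stable. With only the 4 libraries compared, 1 gene passed in DH9 against 2n. By DESeq2, 1 passed in DH6 against DH9, 1 in DH6 against DH14 and 1 in the F-test over the lines. Leaving out each library gave 0 to 1 gene in DH9 against 2n, 0 to 1 in DH14 against 2n, 0 to 2 in DH6 against DH9, 0 to 3 in DH6 against DH14, 0 to 2 in the F-test over the lines and 1 to 2 in that over the 5 diploid groups. Of the inhibitors, 1 rose by DESeq2, 1 with no filter and 0 to 2 with a library left out. CDC6 reversed without 1n 2 (0.92), and its log2 change was -0.59 without 1n 1. Of 99 called genes of the lists, 75 kept their call under every alternative. Over 10 diploid libraries, 3 of the 10 most similar genes were shared, and with a pseudocount of 0.1 all 10. In DH9 against 2n, CYCB1;2 was the gene that passed. The cause of these changes was not tested, other than fewer samples in a fit.

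Counts over all genes moved more. With only the 4 libraries compared, 3028 genes passed in DH9 against 1n (5819 over all 12), 1628 in DH14 against 1n (4603), 4400 in 2n against 1n (7851) and 1953 in DH9 against DH14 (596). Left-out libraries gave as few as 3040 in DH9 against 1n, 2150 in DH14 against 1n, 2603 in DH6 against 2n (4822), 979 in DH9 against 2n (3308), 2247 in DH14 against 2n (5039), 3668 in sDH against 2n (5828), 849 in DH6 against DH9 (3156), 2528 in DH6 against DH14 (5138) and 2111 in the F-test over the lines (4857), and 107 to 1252 in DH9 against DH14.

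Only 1n, DH9 and DH14 columns carry the labels' replicate numbers. Same-numbered libraries of 1n, DH9 and DH14 did not deviate together (r of replicate differences -0.183, 0.119 and -0.0249). With the number as a replicate block, 10 genes passed in DH9 against 1n, 10 in DH14 against 1n and 0 in DH9 against DH14. Over all genes 3786, 2311 and 66 passed with the block, against 4618, 3354 and 207 in the same 6 libraries without it. The forward-strand search of promoters was not run.

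Depth limits CYCB2;1 most among the 10 genes, with 5 and 6 counts in 1n.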

Other observations

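AG, a flower gene outside the 10, had 0.584 and 0.521 CPM in DH6, 0.219 and 0.790 in DH9, 0.525 and 0.507 in DH14, 0.560 and 0.234 in sDH, 0.690 and 0.267 in 2n, against 2.42 and 1.07 CPM in 1n, a log2 change of -1.82 (SE 0.450, adjusted p = 0.00663) by edgeR's quasi-likelihood test, and the call was lost without 1n 1 (adjusted p = 0.192).

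Over the 10 libraries of the diploid groups alone, a choice made after seeing the data, the gene most like the mean pattern of the 10 was AT1G03180 (r = 0.963), followed by DEL3 (0.940) and CDC20.1 (0.936). No test was made.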
